A study of Rattus norvegicus with 16 samples.

Results

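The mir-463 cluster is a group of miRNA hairpins on the rat X chromosome, and its members were taken as the hairpin ids rno-mir-743a, rno-mir-743b, rno-mir-742, rno-mir-883, rno-mir-471, rno-mir-463, rno-mir-878, rno-mir-871 and rno-mir-465. Of these 9 ids, 8 were found among the 392 hairpin ids of the position tables, and rno-mir-465 had no row. The 8 hairpins carried reads on 15 arms, of 712 arms in all, since rno-mir-878 was read only on its 3p arm. None of the 303 member rows held a fractional read, so the counts gave no sign that member reads had been divided among several genomic hits.

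Small RNAs were cloned and sequenced from testis, kidney, liver, heart, spleen and brain of 1 adult BN-Lx male and 1 adult SHR male, with 2 further whole livers per strain from other rats. SHR is the spontaneously hypertensive rat and BN-Lx is an inbred strain of Brown Norway background. No rat was treated, each library came from 1 animal, and each tissue other than liver had 1 library per strain. The 2 testis libraries were the shallowest, with 26880 reads on hairpins in BN-Lx and 29131 in SHR, against 403453 to 3229461 in the other 14 libraries. Of 22 tissue marker hairpins, 19 were highest in the labelled tissue in both strains, and the 3 exceptions were the kidney list's mir-192 and both mir-194 hairpins, which were highest in liver.

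A miRNA hairpin is cut by Drosha and then Dicer, which leaves a duplex of the 5p and the 3p arm, and usually 1 arm is kept while the other is degraded. The seed, bases 2 to 8 counted from the 5′ end, largely sets which mRNAs are bound, so a shift of the 5′ start changes the seed, while a shift of the 3′ end does not. The X-linked hairpins of this group evolve rapidly and are known for expression in the male germ line of rodents, and little is settled about their targets.

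In RefSeq (build GRCr8, later than the build on which the reads had been mapped) the mature sequences of the 9 ids lay on the minus strand of chromosome X between positions 150444098 and 150488242, over 44.1 kb. No protein-coding gene overlapped this stretch, and the nearest ones were Slitrk2 on one side and Ell2l1 on the other. The hairpins of mir-742, mir-883 and mir-471 fell inside the interval of the long noncoding RNA gene LOC120099202, those of mir-878, mir-871 and mir-465 inside LOC108349259, and that of mir-463 overlapped the latter in part. The hairpins of mir-743a and mir-743b overlapped no other gene. The interval held 14 miRNA genes, and of the 5 that were not members, the tables name mir-880 and mir-881.

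The mature sequences of the prevailing arms are shown because they give the seeds that the read starts keep or shift, with both arms of mir-471 and mir-871 because their arm balance differed between libraries; capitals mark the seed (RefSeq, GRCr8).
rno-miR-742-3p: gAAAGCCAccauguuggguaaa
rno-miR-743a-3p: gAAAGACGccaaacuggguaga
rno-miR-743b-3p: gAAAGACAccauacugaauaga
rno-miR-878: gCAUGACAccauacuggguaga
rno-miR-871-3p: uGACUGGCaccauacuggauaa
rno-miR-871-5p: uAUUCAGAuuggugccggucacau
rno-miR-743a-5p: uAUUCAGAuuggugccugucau
rno-miR-463-5p: uACCUAAUuuguuguccauca
rno-miR-883-3p: uAACUGCAacaucucucaguau
rno-miR-471-5p: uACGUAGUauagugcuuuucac
rno-miR-471-3p: uGAAAGGUgccauacuaugu

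The 17 RefSeq mature sequences of the 9 ids held 16 different seeds, and none of these seeds occurred in another rat mature sequence of the table. The seed shared by members was that of mir-743a-5p and mir-871-5p, which were identical over their first 16 bases and at 20 of 22 positions. The 3p arms of mir-743a, mir-743b and mir-878 were alike at 18 of 22 positions in each pair but each had its own seed, and mir-742-3p matched mir-743a-3p and mir-743b-3p at 16 of 22 positions. Reads that differ at this many positions are kept apart by a perfect-match mapping.

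Reads on the members made up 8.41% of all hairpin reads in the BN-Lx testis (2261 reads, exact 95% interval 8.08 to 8.75%) and 11.2% in the SHR testis (3276 reads, 10.9 to 11.6%). Intervals are Clopper-Pearson and cover counting error only, because reads copied in PCR look the same as reads of separate molecules. By the authors' methods, the testis libraries of both rats and the SHR liver had more PCR cycles than the rest. Testis thus differed from the other tissues in amplification as well as in depth. The same 8 hairpins gave 184 reads in BN-Lx kidney (0.0338%) and 6 in SHR kidney (0.0010%). Brain gave 29 reads in the BN-Lx rat and 24 in the SHR rat, heart 5 and 3, spleen 2 and 1, and the livers of the same 2 rats 2 and 1. In the heat map of member arms the 2 testis columns stand out although these libraries are the shallowest, and BN-Lx kidney was the only other library of the 6-tissue set with more than 29 member reads.

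**Figure D1:**
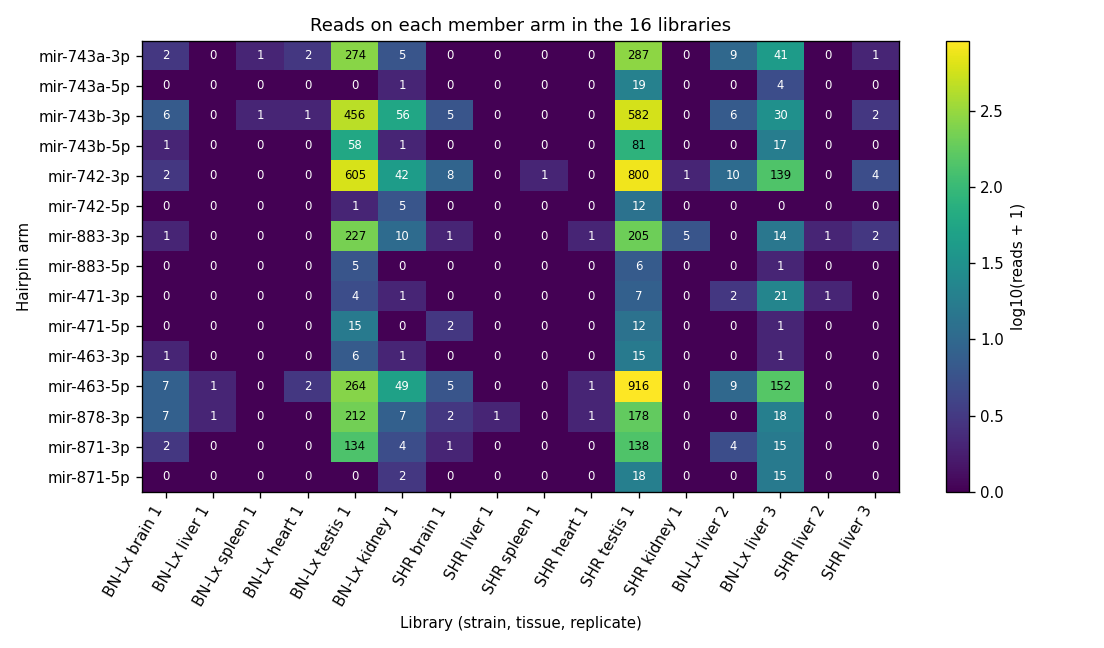
Reads on each of the 15 member arms (rows) in the 16 libraries (columns), coloured by log10(reads + 1) with the read number in each cell. The 2 testis columns hold 2261 and 3276 reads, and the next fullest columns are BN-Lx liver 3 (469 reads) and BN-Lx kidney (184 reads).

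The most read arm over both testes was mir-742-3p, with 605 reads in the BN-Lx testis and 800 in the SHR testis, which ranked it 9 and 8 among all arms of those libraries. It was followed by mir-463-5p with 264 and 916 reads and by mir-743b-3p with 456 and 582 reads. mir-743a-3p had 274 and 287 reads, mir-883-3p 227 and 205, mir-878-3p 212 and 178, and mir-871-3p 134 and 138. rno-mir-471 was by far the lowest member, with 19 reads in each testis library. Thus the levels of the hairpins spanned from 19 to 606 reads in the BN-Lx testis and from 19 to 931 reads in the SHR testis, within a group that lies in 44.1 kb.

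Tissue preference was tested in the 12 libraries of the 6-tissue set (testis, n = 2, against the mean of the other 5 tissues, with the rat as a block, edgeR quasi-likelihood test with Benjamini-Hochberg adjustment). Of the 15 member arms, 11 passed the filter on low values, and all 11 were higher in testis, against 11.1% of all 458 arms tested (51 arms higher and 63 lower, and 101 higher and 20 lower when libraries were scaled by total reads alone). An arm read almost only in testis can pass the filter only through testis. The count, the medians over these 11 arms and their p-values therefore describe them and are no support by themselves. Adjusted p in this edgeR fit ranged from 1.11e-07 for rno-mir-883-3p, rno-mir-743a-3p and rno-mir-878-3p to 0.0088 for rno-mir-742-5p. For rno-mir-742-5p (1 and 12 testis reads) the call was lost with DESeq2 (adjusted p = 0.120) and when testis had to exceed each other tissue in turn (0.151), and for rno-mir-471-5p it was lost with DESeq2 (adjusted p = 0.0557). The 4 arms that were not tested were mir-743a-5p, mir-871-5p, mir-883-5p and mir-471-3p, with at most 19 reads in a testis library.

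Fitted fold changes of arms with no read outside testis depend on the tool's prior count, so the folds were also taken from the reads directly. Each library was scaled to its mean known arm without the 3 most read arms (ocm), and the testis value was set against the highest of the other 5 tissues of the same rat, or against 3 reads where that was more. The median over all 15 member arms was 6.89 on the log2 scale in BN-Lx and 8.35 in SHR, and over the 11 tested ones it was 7.92 and 9.48, beside -2.77 and -2.47 over all tested arms. The median of the fitted log2 fold change over all arms was -0.87 and moved to -0.50 with RLE size factors, 0.18 with total reads and 0.30 with DESeq2, shifts that are small beside the fitted member values of 8.14 to 13.09. In BN-Lx the highest other tissue was kidney for every member arm read outside testis, and mir-742-3p was 318-fold higher in testis than there (95% counting interval 232 to 446), mir-743b-3p 180-fold (136 to 242) and mir-463-5p 119-fold (87.4 to 165). In SHR the highest other tissue of mir-742-3p was brain with 8 reads, and testis was 3226-fold higher (1629 to 7498). For mir-743a-3p no other tissue of the SHR rat had a read, and testis was at least 1155-fold higher (3 reads in 1 library).

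By a fixed fold, 12 of the 15 member arms reached 5-fold over every other tissue in both strains, against 5.01% of the 698 arms read in the 6-tissue set. The 3 arms that did not were mir-743a-5p and mir-871-5p, which had no read in the BN-Lx testis, and mir-742-5p, which had 1. All 15 met the rule in the SHR libraries alone. The 5.01% stands for 35 arms, and the 12 member arms are among them. A few testis reads were enough, as mir-883-5p met the rule with 5 and 6 reads and no read in another tissue of these rats. With at least 10 reads required in testis, 9 member arms met it. In tissue RNA, fewer cells of a type and less RNA per cell cannot be told apart.

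Between the testes of the 2 rats the member hairpins did not keep a fixed proportion. mir-463-5p took 11.7% of the member reads in the BN-Lx testis (10.4 to 13.1%) and 28.0% in the SHR testis (26.4 to 29.5%), and per read of the library it was 3.20-fold higher in SHR (2.79 to 3.69). The other arms with at least 50 reads in each testis ranged from 0.775-fold for mir-878-3p (0.631 to 0.950) to 1.29-fold for mir-743b-5p (0.909 to 1.84). Without mir-463-5p the summed members were 1.09-fold higher in the SHR testis (1.03 to 1.16), against 1.34-fold with it (1.27 to 1.41). mir-742-3p was 1.22-fold (1.10 to 1.36) and mir-743b-3p 1.18-fold (1.04 to 1.33) higher in SHR, while the intervals of mir-743a-3p (0.967-fold), mir-871-3p (0.950-fold) and mir-883-3p (0.833-fold) included 1. With 1 testis per strain these ratios compare 2 libraries, they have no replicate check, and no p-value is given.

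**Figure D2:**
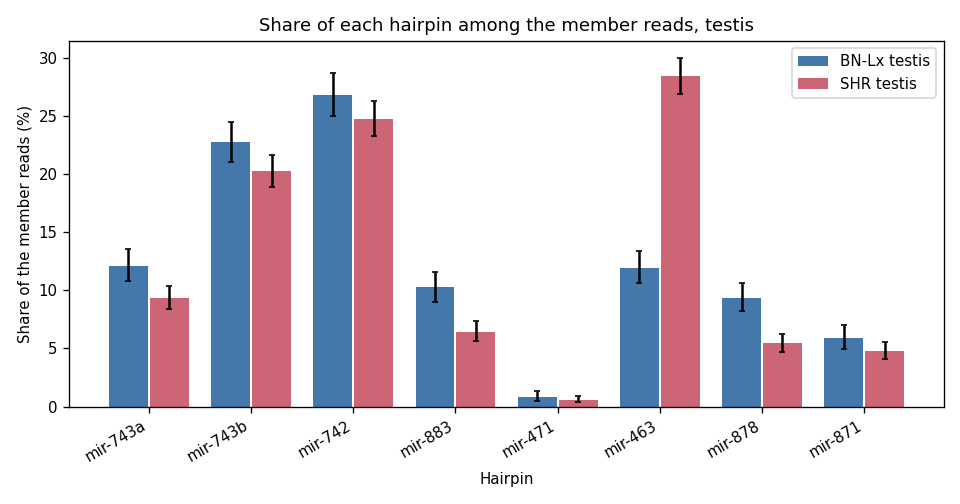
Share of each hairpin (x axis) among the member reads of BN-Lx testis (blue) and SHR testis (red), in percent, with exact 95% intervals. rno-mir-463 is 11.9% of the member reads in the BN-Lx and 28.4% in the SHR library, and rno-mir-742 changes little (26.8% and 24.8%).

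Part of the mir-463-5p reads was short. Reads under 20 nt were 3.49% of the member reads in the BN-Lx testis and 9.68% in the SHR testis, beside 4.97% and 6.84% over all hairpins in the same libraries. With reads of at least 20 nt alone, rno-mir-463 took 9.90% of the member reads in the BN-Lx testis and 22.1% in the SHR testis. Whether read length had a part in the difference between the libraries was not tested further.

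One arm of the duplex prevailed in 7 of the 8 hairpins, and it was the 3p arm in 6 of them. In mir-742 the 3p arm held 99.8% of the reads in the BN-Lx testis and 98.5% in the SHR testis, and in mir-883 97.8% and 97.2%. mir-463 was the member with a prevailing 5p arm, at 97.8% (95.2 to 99.2%) in BN-Lx and 98.4% (97.4 to 99.1%) in SHR. Among these 7, mir-743b kept the most of its second arm, with 58 of 514 reads on 5p in the BN-Lx testis and 81 of 663 in the SHR testis, so that 3p held 88.7% (85.7 to 91.3%) and 87.8% (85.0 to 90.2%). mir-471 was the most balanced, with 15 reads on 5p and 4 on 3p in the BN-Lx testis and 12 and 7 in the SHR testis, and at this depth the 5p share can lie anywhere from 54.4 to 93.9% in the first and from 38.4 to 83.7% in the second library.

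Some second arms were read more in the SHR testis. mir-743a-5p had 0 reads in the BN-Lx testis and 19 in the SHR testis, mir-871-5p 0 and 18, and mir-742-5p 1 and 12, while mir-883-5p had 5 and 6. Over all members the less read arms summed to 74 reads in the BN-Lx testis (3.27% of the member reads, 2.58 to 4.09%) and to 158 in the SHR testis (4.82%, 4.11 to 5.61%). mir-743b-5p, the most read of them, was 2.57% and 2.47% of the member reads, and the strain ratios of mir-743b-5p, mir-883-5p, mir-471-3p and mir-463-3p had intervals that included 1. The 3p arms of mir-743a and mir-871 had intervals of the strain ratio that included 1. mir-743a-5p and mir-871-5p are the pair with a common seed, and both were at 0 in the BN-Lx testis, a count that allows 3 reads or 0.0112% of that library.

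The 5′ starts were sharp in some arms and split in others. mir-742-3p began at hairpin position 46 in 603 of 605 reads of BN-Lx testis and in 799 of 800 reads of SHR testis, and mir-463-5p began at position 10 in 261 of 264 and in 899 of 916 reads. mir-871-3p began at position 45 in 97.0% and 96.4% of its reads. Of the 13 member arms with reads that could be placed on a RefSeq hairpin, 12 had their most read start at the annotated mature 5′ end. Over all members, the main start of the arm held 85.1% of the reads in the BN-Lx testis (83.5 to 86.5%) and 89.2% in the SHR testis (88.0 to 90.2%), and 99.4% and 99.5% began within 1 nt of it.

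Nearly all reads off the main start came from 4 arms, mir-743a-3p, mir-743b-3p, mir-883-3p and mir-878-3p, each with a second start 1 nt downstream. In mir-743a-3p, 193 of 274 reads began at position 45 and 81 at position 46 in the BN-Lx testis, and 198 and 89 of 287 in the SHR testis. In mir-743b-3p the second start held 18.2% of the reads (14.8 to 22.1%) in BN-Lx and 15.6% (12.8 to 18.9%) in SHR. In mir-883-3p it held 38.8% (32.4 to 45.4%) and 36.1% (29.5 to 43.1%). For each of the 4 arms the share was close between the 2 rats, with intervals that overlapped.

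mir-878-3p was the exception to the annotation. Its main start lay 1 nt upstream of the RefSeq mature 5′ end, at position 45 in 143 of 212 reads in the BN-Lx testis (67.5%, 60.7 to 73.7%) and in 111 of 178 reads in the SHR testis (62.4%, 54.8 to 69.5%). The annotated start at position 46 held 63 and 59 reads, or 29.7% and 33.1%. Both forms of mir-878-3p and the shifted forms of mir-883-3p and mir-743b-3p are shown with the seed in capitals. Each is cut from the RefSeq hairpin and runs to the most read end of the whole arm. For the downstream form of mir-878-3p that end, position 66, held 38.1% of its reads in the BN-Lx testis and 27.1% in the SHR testis.
mir-878-3p, main start in testis: uGCAUGACaccauacuggguag
mir-878-3p, start 1 nt downstream: gCAUGACAccauacuggguag
mir-883-3p, start 1 nt downstream: aACUGCAAcaucucucaguau
mir-743b-3p, start 1 nt downstream: aAAGACACcauacugaauaga

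None of these seeds other than that of the annotated mir-878 form was found among the rat mature sequences. In mir-878-3p both ends moved together. Of the reads that began at position 45, 83.2% ended at position 66 in the BN-Lx testis and 91.9% in the SHR testis, whereas of the reads that began at position 46, 60.3% and 71.2% ended 1 nt later, at position 67. In mir-743b-3p the most read end did not move. Reads from either start ended most often at position 67, with 60.3% and 65.1% for the 2 starts in the BN-Lx testis. In the SHR testis these shares were 54.2% and 78.0%. The reads of the second start of mir-743b-3p were accordingly shorter, with a mean of 20.7 nt against 21.5 nt in the BN-Lx testis. In mir-883-3p the most read end was also position 67 for both starts in both testes. In mir-743a-3p it was position 66 for both starts in the BN-Lx testis. In the SHR testis it was 65 for the first start (53.5%) and 66 for the second (59.6%).

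**Figure D3:**
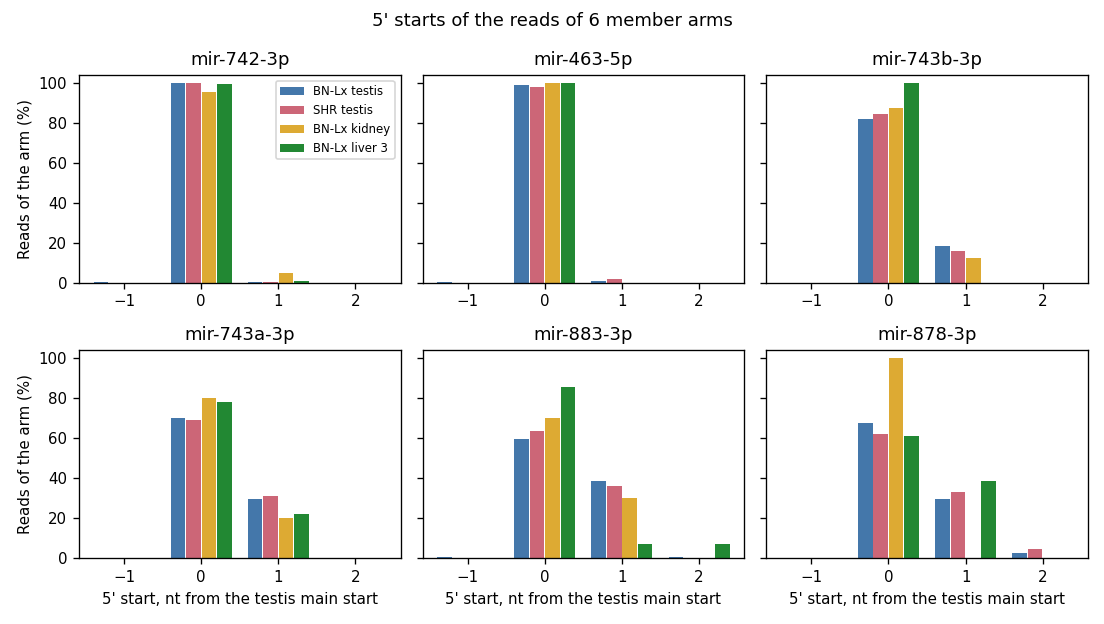
Percent of the reads of 6 member arms (y axis) by 5′ start in nt from the most read start in testis (x axis, 0 is the main start) in the BN-Lx testis, SHR testis, BN-Lx kidney and BN-Lx liver 3. mir-742-3p and mir-463-5p hold over 95% at 0 in each library, and the other 4 arms have a second start at 1 in testis.

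The 3′ ends varied more than the starts. The main end of the arm held 69.0% of the member reads in the BN-Lx testis (67.0 to 70.9%) and 61.1% in the SHR testis (59.4 to 62.8%). mir-742-3p was again the most uniform, ending at position 66 in 92.2% of its reads in the BN-Lx testis and 92.6% in the SHR testis. Among the arms with at least 50 reads in each testis, mir-463-5p, which had a fixed start, was the most spread, as its most read end at position 30 held only 42.8% of the reads in the BN-Lx testis (36.8 to 49.0%) and 32.4% in the SHR testis (29.4 to 35.6%). A second group of mir-463-5p reads ended 2 nt earlier, at position 28, with 54 of 264 reads in the BN-Lx testis (20.5%) and 276 of 916 in the SHR testis (30.1%), while position 29 in between held 3 and 8 reads.

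**Figure D4:**
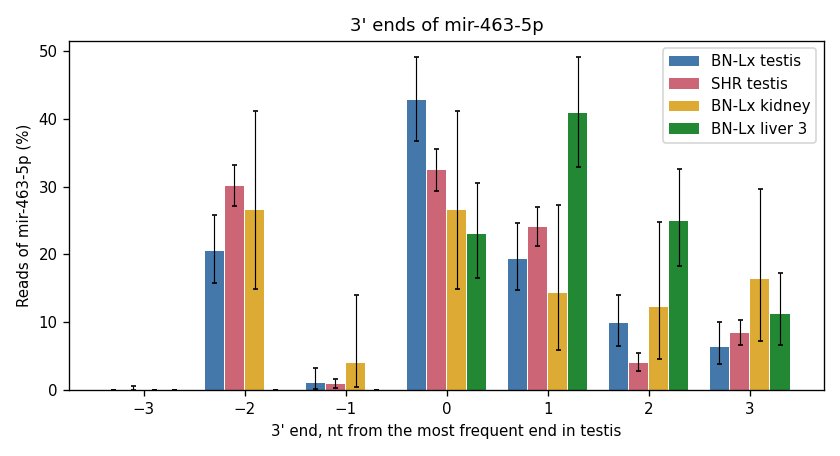
Percent of mir-463-5p reads (y axis) by 3′ end in nt from the most read end in testis (x axis) in 4 libraries, with exact 95% intervals. The end at -2 holds 20.5%, 30.1% and 26.5% of the reads in the BN-Lx testis, SHR testis and BN-Lx kidney and no read in BN-Lx liver 3.

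Outside testis, member reads were frequent enough to place only in BN-Lx kidney (184 reads) and BN-Lx liver 3 (469 reads, 0.0402% of that library), with 40 reads in BN-Lx liver 2. SHR liver 2 had 2 and SHR liver 3 had 9. These are single libraries: the other kidney had 6 reads, and the 2 livers of the same BN-Lx group had 2 and 40. The kidney came from the same rat as the BN-Lx testis, and liver 3 from another rat.

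In both libraries the reads began where the testis reads began. The testis main start held 171 of the 184 reads in BN-Lx kidney (92.9%, 88.2 to 96.2%), 444 of 469 in BN-Lx liver 3 (94.7%, 92.2 to 96.5%) and 36 of 40 in BN-Lx liver 2 (90.0%, 76.3 to 97.2%). The testis start shares, applied to the arms each library held, would give 89.7%, 92.0% and 89.0%. All 184 kidney reads and 467 of the 469 reads in liver 3 began within 1 nt. mir-743b-3p was the arm that stood apart, as all 30 of its reads in liver 3 began at the main start (interval 88.4 to 100%), against 81.8% (77.9 to 85.2%) and 84.4% (81.2 to 87.2%) in the testes.

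The proportions of the arms were less alike. As the sum over arms of the lower of 2 shares, the profile of BN-Lx kidney had 84.0% in common with SHR testis but 69.8% with BN-Lx testis, the testis of the same rat. BN-Lx liver 3 had 82.0% in common with SHR testis and 67.0% with BN-Lx testis, and the 2 testes shared 82.0%. Without mir-463-5p the kidney shared 78.7% with SHR testis and 73.7% with BN-Lx testis, liver 3 shared 76.5% and 71.5%, and the 2 testes 91.6%. mir-463-5p was 26.6% of the member reads in kidney (20.4 to 33.6%) and 32.4% in liver 3 (28.2 to 36.9%), nearer to the 28.0% of SHR testis than to the 11.7% of BN-Lx testis.

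In kidney the intervals of 12 of 15 arms overlapped with the range of the testis intervals. That range covers both testes (10.4 to 29.5% for mir-463-5p), and arms with few reads have wide intervals. Overlap was thus easy to reach, and counts of overlapping arms do not measure likeness to testis. In kidney mir-743b-3p was above the range (56 reads, 30.4% of the members, 23.9 to 37.6%). mir-742-5p was above it with 5 reads, and mir-743a-3p was below it with 5 reads (2.72%, 0.888 to 6.23%). In liver 3 the intervals of 11 arms overlapped. mir-743b-3p was below with 30 reads (6.40%, 4.36 to 9.01%) and mir-883-3p below with 14 (2.99%), while mir-471-3p (21 reads, 4.48%, 2.79 to 6.76%) and mir-871-5p (15 reads, 3.20%, 1.80 to 5.22%) were above. mir-743b-3p thus departed from testis in opposite directions in the 2 libraries.

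The arm balance of 3 hairpins in liver 3 differed from testis. Liver 3 came from another rat and belongs to the further livers, a separate library set. Tissue, rat and library set therefore cannot be told apart in these shares. In rno-mir-471 the 3p arm had 21 of 22 reads, so that the 5p arm, the more read one in testis, held 4.55% (0.115 to 22.8%) against 78.9% and 63.2% in the testes. In rno-mir-871 the arms had 15 reads each (interval of the 3p share 31.3 to 68.7%), against a 3p share of 100% and 88.5% in the testes. In rno-mir-743b, 17 of 47 reads were on 5p, and 3p held 63.8% (48.5 to 77.3%) against 88.7% and 87.8%. The arms of mir-463, mir-742 and mir-883 kept the balance of testis, with 152 of 153 reads of mir-463 on 5p and all 139 reads of mir-742 on 3p. Over all members the arm less read in testis had 12.6% of the reads in liver 3 (9.72 to 15.9%), 5.98% in kidney (3.02 to 10.4%), and 3.27% and 4.82% in the testes. BN-Lx liver 2 had 2 of its 40 reads on these arms, both on mir-471-3p, and none of its 6 reads of mir-743b or 4 reads of mir-871 was on 5p.

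**Figure D5:**
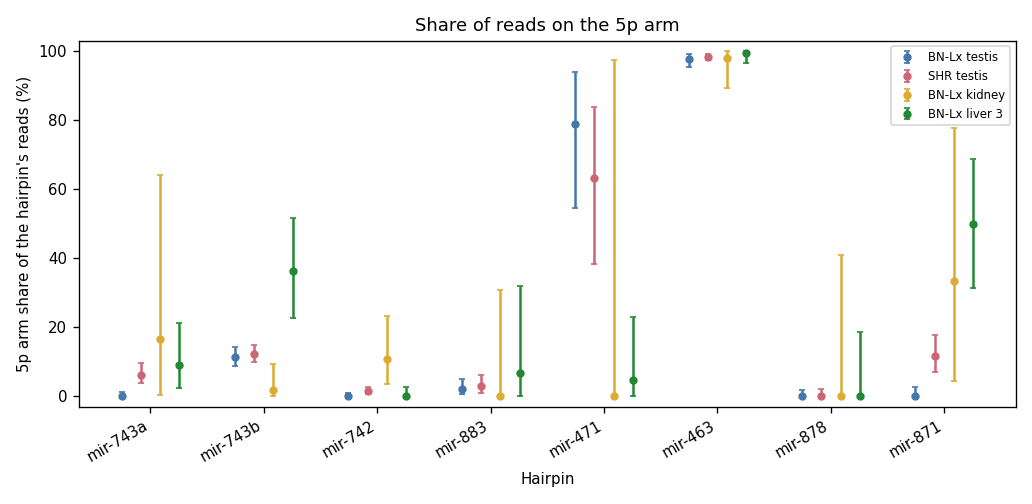
Percent of the reads of each hairpin on its 5p arm (y axis) in the BN-Lx testis, SHR testis, BN-Lx kidney and BN-Lx liver 3, with exact 95% intervals. In liver 3 the 5p share of rno-mir-471 lies below both testes and those of rno-mir-743b and rno-mir-871 lie above both; the kidney intervals of rno-mir-471 and rno-mir-871 rest on 1 and 6 reads.

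The 3′ ends in the 2 further BN-Lx livers were later than in testis. These libraries form a separate set, with reads down to 15 nt against 17 nt in the 6-tissue set. The 6-tissue livers had only 2 and 1 member reads, so tissue and library set cannot be told apart. Reads ending beyond the main testis end were 39.0% of the member reads in BN-Lx liver 3 (34.6 to 43.6%) and 42.5% in BN-Lx liver 2 (27.0 to 59.1%), where the testis shares of the same arms would give 17.8% in the former. In BN-Lx kidney they were 19.0% (13.6 to 25.4%), with 15.2% from the testis shares. mir-463-5p ended most often at position 31 in liver 3 (62 of 152 reads, 40.8%), and the early end at position 28, with 13 of 49 reads in kidney (26.5%, 14.9 to 41.1%), had no read there, which allows a share of up to 1.97% (3 reads). mir-878-3p ended at position 67 in 11 of 18 reads in liver 3, against 29.7% and 30.3% in the testes. Later ends were not shared by every arm. In liver 3, mir-743a-3p and mir-743b-3p ended at the main testis end in 35 of 41 and 29 of 30 reads, with the rest 1 nt earlier. Reads under 20 nt were 1.80% of all hairpin reads in liver 3, 3.25% in liver 2, 2.54% in kidney and 4.97% and 6.84% in the testes, a difference in library length whose part in these ends was not tested.

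Other miRNAs of testis were present in the kidney library and nearly absent from liver 3. mir-202, listed under its human id and known from the gonads, had 669 reads in the BN-Lx testis and 1261 in the SHR testis, or 29.6 and 38.5 per 100 member reads. BN-Lx kidney had 48 mir-202 reads, 26.1 per 100 member reads, and SHR kidney had 1. BN-Lx liver 3 had 0 mir-202 reads beside its 469 member reads, and BN-Lx liver 2 also had 0. The other livers likewise had 0, except the 6-tissue SHR liver with 1, so this 0 is not particular to liver 3. The whole list of mir-202, mir-34b, mir-34c, mir-449a and mir-449c summed to 6.20% and 10.2% of the testis libraries, 0.247% of BN-Lx kidney, 0.0234% of SHR kidney and 0.0018% of BN-Lx liver 3, where mir-202 and mir-449c were at 0. The other miRNAs of the list did not keep the testis ratio to the members in BN-Lx kidney, where mir-34c had 633 reads per 100 member reads (18.4 in the BN-Lx testis), mir-34b 61.4 (24.0) and mir-449a 9.24 (1.64). The list is not limited to testis, since brain had 1317 and 1760 reads on it and SHR kidney had 125 of mir-34c. The part of testis RNA or of any cell type in the kidney and liver reads was not tested.

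The neighbouring hairpins behaved alike in testis. rno-mir-880-3p had 55 and 57 reads and rno-mir-881-3p 25 and 29 reads in BN-Lx and SHR testis, with main starts that held 94.5% and 96.5%, and 88.0% and 86.2%, of their reads. Both were higher in testis in the edgeR fit (adjusted p = 6.13e-06 and 2.24e-06). Like the members they were read mostly in testis and could pass the filter on low values only through it. The p-values therefore describe them and are no support by themselves. In BN-Lx liver 3 mir-881-3p had 14 reads and mir-880-3p 4, the reverse of their order in testis. Reads listed under the mouse hairpin id mmu-mir-465b-1, a relative of the absent rno-mir-465 that was singled out after the ids were seen, numbered 28 and 47 in the testes, 3 in BN-Lx kidney and 7 in BN-Lx liver 3.

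Over the 12 libraries of the 6-tissue set, the arms not listed under a named cluster hairpin whose log2(reads/ocm + 0.01) followed the summed members most closely were mir-202-5p (Pearson r = 0.994), the unnamed candidate hairpins sblock27632-3p (0.994) and sblock27639-3p (0.991), mir-201-3p listed under its mouse id (0.982) and mir-34c-3p (0.976). The libraries share 2 rats, and 2 of the 12 points carry most of the signal, so the values describe likeness over these libraries only. The position of the 2 candidates on the genome was not analysed here, and they may lie inside the cluster, 3 of whose annotated hairpins (mir-741, mir-3551 and mir-3580) were not analysed here under their own names. In BN-Lx liver 3 sblock27632-3p had 70 reads, while mir-202-5p and mir-201-3p had 0.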

How the data were processed

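Small RNA libraries from 16 rat samples were analysed, 12 of them from 6 tissues of 2 rats. The authors trimmed SOLiD reads, mapped them with SHRiMP to hairpins of rat build RGSC3.4 and miRBase, and kept perfect matches. The deposited tables hold, per hairpin and start and end position, an estimated count of reads divided evenly among genomic hits; columns hold no other normalization. Libraries were grouped by their titles. Totals ran from 26880 to 3229461 reads. Read midpoints were assigned to the 5p or 3p side of the hairpin. edgeR 4.0.16 (R 4.3.3) fitted rounded arm counts with TMM scaling, filterByExpr and tissue plus rat as a block; the labels number only the further livers, and the rat, shared by the 6 tissues of a strain, is what the block stands for. DESeq2 1.42.0 was an alternative. Exact binomial intervals (95%) came from scipy 1.17.1. Named items were all members, annotated neighbours, testis miRNAs and the 5 most similar arms. Members and lists were chosen with earlier results of these data known. Reads of a piRNA list were not used. RefSeq sequences matched all 9 ids (8 with a hairpin), and in 24 of 25 arm and library pairs the study's listed sequence began at the most read start.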

Additional observations from a re-analysis of the deposited data

Results flagged for a closer look

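Member reads were found in the further livers, which were left out of the main tissue comparison, above the 2 reads of the highest liver in the 6-tissue set. BN-Lx liver 3 had 469 reads on the member hairpins and BN-Lx liver 2 had 40. The 2 libraries came from different rats of the same strain. BN-Lx liver 3 had 0 reads of mir-202, as had every other liver library except the 6-tissue SHR liver, which had 1.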

How the results depend on the processing

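Of 15 member arms, 11 were called higher in testis, and 9 to 15 were called in the alternatives that kept the arms apart: 11 without the replicate block (the rat), with RLE or with total reads, 12 with the 4 further livers added, 9 with DESeq2 or after thinning, 10 against each other tissue, 15 without the filter, and 9 to 12 without 1 testis library, where the lone testis sample is assumed to vary like the other tissues. With arms summed, 8 of 8 hairpins were called. The 5-fold rule gave 9 to 15 arms. Of 105 alternative values for single arms, 102 kept their call, 3 lost it and 0 reversed. Leaving the 3 most read arms out of the total raised the member share to 11.2% (BN-Lx) and 14.2% (SHR). With reads of at least 20 nt, rno-mir-463 took 9.90% and 22.1% and rno-mir-742 27.3% of the SHR testis member reads. Counting starts within 1 nt gave 99.4% and 99.5% in the testes, 100% in BN-Lx kidney and liver 2, and 99.6% in liver 3. Without mir-463-5p, chosen after seeing the data, BN-Lx liver 3 shared 71.5% of its profile with BN-Lx testis and 76.5% with SHR testis. Each alternative's own construction moves these shares. Depth limits mir-471 and every second arm in testis. The 105 values leave out settings in which an arm was no longer tested. These were mir-742-5p and mir-463-3p after thinning and without the SHR testis, and mir-471-5p without the BN-Lx testis.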
